A study of Homo sapiens with 4 samples.

Results

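Cell-cell junctions and apical-basal polarity were examined in RNA-seq data from cells that carry the label HepG2, which is an established line from a human liver cancer. The 43 genes examined encode cadherins, claudins, other tight junction and desmosome proteins, polarity proteins, surface proteases with their inhibitors, and epithelial regulators. They were taken from a fixed list of symbols, all 43 matched an identifier, and they are 43 of 57768 gene entries in the files. WT cells gave 2 libraries and C/EBPβ enh-/- cells gave another 2. In the latter, both alleles of an enhancer downstream of the C/EBPβ gene had been deleted with CRISPR/Cas9. Both genotypes were grown in the same serum-containing medium without any further treatment. The sources used here do not say whether a genotype was 1 clone or whether its 2 libraries came from separate cultures, so p-values measure the spread between libraries, which may be technical. Values are FPKM, the fragments mapped to a gene scaled for its length and for the size of the library, and levels of different genes can be compared on this per-length scale.

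Epithelial cells hold together through adherens junctions, tight junctions and desmosomes. In an adherens junction, classical cadherins bind the neighbouring cell and are anchored to actin by the catenins, while claudins and occludin seal the tight junction and desmosomal cadherins are tied to keratin filaments through plakophilins and desmoplakin. The PAR, Crumbs and Scribble complexes divide the membrane into apical and basolateral parts. Hepatocytes are polarised epithelial cells, and HepG2 is known for albumin and alpha-fetoprotein, for E-cadherin and for the simple keratins 8 and 18. In epithelial-mesenchymal transition, ZEB, SNAI and TWIST factors lower E-cadherin and other junction genes and vimentin and N-cadherin rise.

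CEBPB, the gene the deleted enhancer acts on, had an FPKM of 30.6 and 19.2 in WT libraries 1 and 2 and of 12.4 and 11.8 in C/EBPβ enh-/- libraries 1 and 2, and its log2 fold change, -0.94 (adjusted p = 0.125, limma), did not pass the threshold of 0.05. The spacing of the low values put WT library 2 at 1.13 times, and C/EBPβ enh-/- libraries 1 and 2 at 0.555 and 1.22 times, the depth of WT library 1. C/EBPβ enh-/- library 1 was therefore the shallowest. Over all 12491 tested genes, the median log2 fold change was -0.14. Centring each library on its median moved it by 0.17, and subtracting this median makes each genotype difference 0.14 higher.

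The expression of liver genes went against the label. Of 20 hepatocyte genes, 19 had an FPKM under 1 in each of the 4 libraries and 13 were below 0.1 in all 4. ALB was at 0.0553, 0, 0 and 0.000783 in WT 1, WT 2, C/EBPβ enh-/- 1 and C/EBPβ enh-/- 2, AFP was at 0, 0, 0 and 0.0605, and HNF4A, a hepatocyte transcription factor, was at or below 0.0409 in every library. The exception was FOXA1, a forkhead factor of many epithelia, at 1.23 to 2.09. The cells are therefore called by their genotype below. Of 6 simple epithelial keratins, 3 were high, and of 7 stratified epithelial keratins, KRT17 was. KRT7, KRT8 and KRT18 lay between 82.6 and 636 in every library, KRT17 between 190 and 459, and KRT19 at 0.907 and 1.81 in WT cells and at 0 in both C/EBPβ enh-/- libraries. KRT20, KRT23 and the other 6 stratified keratins were below 1 in all 4 libraries. Of 20 mesenchymal genes, 12 were at 1 or more in all 4 libraries, against 52.5% of 19403 protein-coding genes. Another 6 (PRRX1, SPARC, COL1A2, FAP, THY1 and PDGFRA) were below 1 in all 4, against 41.0%. VIM, the vimentin gene, had 232 and 308 in WT cells and 190 and 138 in C/EBPβ enh-/- cells, and ZEB1 had 17.9 and 11.5 against 12.7 and 7.28. CDH2, which encodes N-cadherin, had 5.05 and 12.2 against 4.53 and 3.69. All 8 blood cell genes were below 1 in all 4 libraries, and so were 6 of 7 endothelial genes with an identifier. ERG was the exception, at 0.822 to 2.18, and PECAM1 was not matched.

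**Figure D1:**
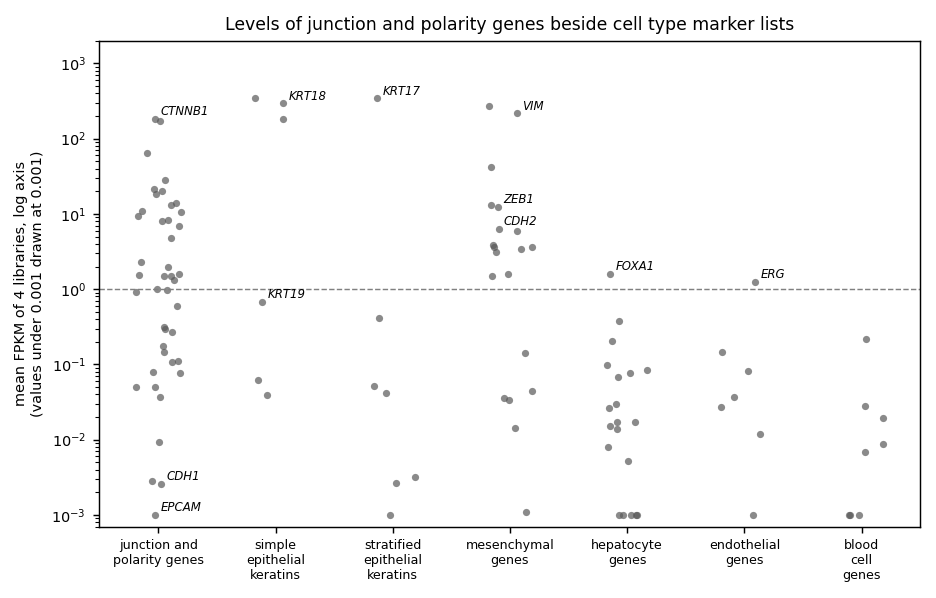
Mean FPKM of the 4 libraries for each gene (1 point per gene, log axis) in the junction and polarity genes and in 6 lists of cell type markers, with a dashed line at an FPKM of 1. CDH1 and EPCAM lie near the bottom of the junction genes, the hepatocyte list lies below the line with the exception of FOXA1, and KRT18 and VIM lie above 100.

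Among the 43 junction and polarity genes, 18 were at an FPKM of 1 or more in all 4 libraries, 16 were below 1 in all 4 and 9 lay on both sides. The first share, 41.9%, compares with 52.5% of 19403 protein-coding genes, and the second, 37.2%, with 41.0%. Of the 18 genes, 7 were at 10 or more in every library, namely CTNNB1, CTNNA1, CTNND1, JUP, DSP, PKP4 and PKP3. These 7 encode proteins of the cytoplasmic plaque of adherens junctions and desmosomes, and none is a transmembrane protein. At the other end, EPCAM, CDH1, GRHL2, DSC3, CLDN6, OVOL1 and ST14 were below 0.1 in all 4 libraries.

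**Figure D2:**
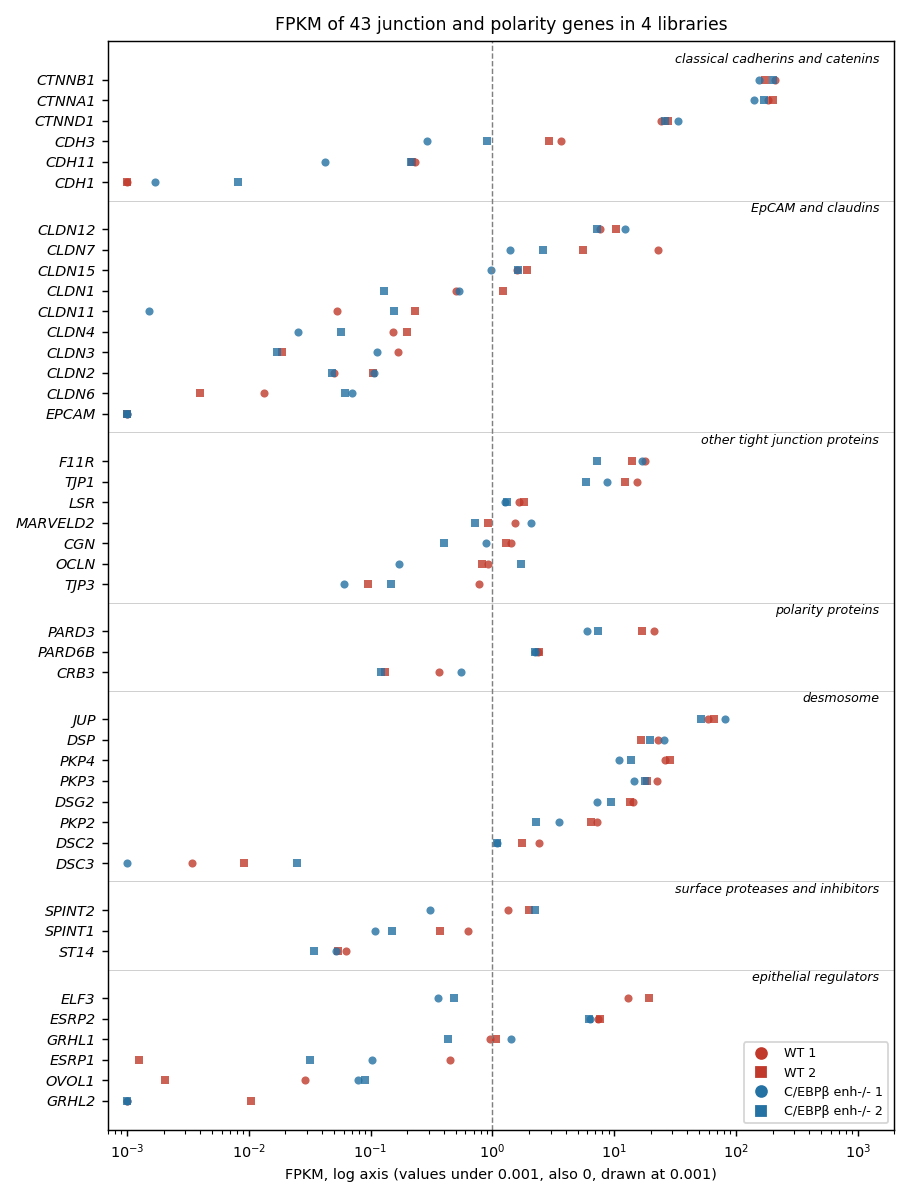
FPKM of the 43 genes in each library, on a log axis, grouped by role and ordered by mean level within each group. Red marks the WT and blue the C/EBPβ enh-/- libraries, and the dashed line is an FPKM of 1. CTNNB1 and CTNNA1 lie above 100 in all 4 libraries, while CDH1 and EPCAM lie below 0.01.

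The 3 cadherins of the adherens junction group, CDH1, CDH3 and CDH11, were at 3.68 or less in every library, and the catenins were high. CDH1 (E-cadherin, the defining cadherin of epithelia; ENSG00000039068.14) had an FPKM of 0 and 0.000630 in WT cells and of 0.00170 and 0.00811 in C/EBPβ enh-/- cells. With the whole exon length of the gene, the highest of these corresponds to about 2.4 fragments, and no fold change is given for it. CDH11, a mesenchymal cadherin, was at 0.233 and 0.220 in WT cells and at 0.0423 and 0.215 in C/EBPβ enh-/- cells. CDH3 (P-cadherin) was the highest of these 3, at 3.68 and 2.90 in WT cells and 0.289 and 0.910 in C/EBPβ enh-/- cells. Each of the latter was below both WT values. All 3 lay below N-cadherin, which belongs to the mesenchymal list.

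CTNNB1 (β-catenin, which binds the cadherin tail and also acts in WNT signalling) was at 211 and 174 in WT cells and at 153 and 201 in C/EBPβ enh-/- cells. CTNNA1 (α-catenin, the link to actin) was at 182 and 200 against 141 and 171. The ranges of these top 2 genes overlapped, so their order is not fixed by the data. CTNND1 (p120 catenin, which stabilises cadherins at the membrane) was at 24.2 and 27.9 against 33.7 and 25.9.

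EPCAM, the epithelial cell adhesion molecule, was at 0.000547 and 0.000488 in WT cells and at 0 in both C/EBPβ enh-/- libraries, under 1 fragment in each. Of the 9 claudins, CLDN12 and CLDN7 were the highest. CLDN12 was at 7.61 and 10.3 in WT cells and at 12.3 and 7.23 in C/EBPβ enh-/- cells, and the groups overlapped. CLDN7, a claudin of many epithelia, was at 23.1 and 5.56 in WT cells and at 1.40 and 2.60 in C/EBPβ enh-/- cells. The WT libraries thus differed from each other by more than WT library 2 differed from either C/EBPβ enh-/- library, although the groups did not overlap. CLDN15 was at 1.59 and 1.94 against 0.967 and 1.63. CLDN1, a barrier-forming claudin, exceeded 1 only in WT library 2, where it was at 1.23, and was between 0.128 and 0.527 in the other libraries. CLDN2, CLDN3, CLDN4, CLDN6 and CLDN11 were at or below 0.231 in all 4 libraries. CLDN3 and CLDN4, which are abundant in many carcinomas, reached 0.167 and 0.197.

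Among the other tight junction proteins, the scaffold TJP1 (ZO-1) was at 15.5 and 12.2 in WT cells and at 8.68 and 5.87 in C/EBPβ enh-/- cells, and both of the latter lay lower. F11R (JAM-A, an immunoglobulin-type adhesion molecule) was at 18.0 and 13.9 against 17.1 and 7.19. The tricellular junction protein LSR was at 1.66 and 1.81 against 1.26 and 1.32, and its partner MARVELD2 (tricellulin) was at 1.53 and 0.928 against 2.09 and 0.725. OCLN (occludin) was at 0.920 and 0.819 in WT cells and at 0.171 and 1.71 in C/EBPβ enh-/- cells, so that the WT values lay between the C/EBPβ enh-/- values. CGN (cingulin, a plaque protein of tight junctions) was at 1.41 and 1.29 against 0.893 and 0.404. TJP3 (ZO-3), at 0.770 in WT library 1, was at or below 0.147 in the others.

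The 3 polarity genes differed widely. PARD3, the scaffold of the PAR complex, was at 21.3 and 17.0 in WT cells and at 5.995 and 7.43 in C/EBPβ enh-/- cells, and the groups were well separated. PARD6B, its PDZ-domain partner, was at 2.37 and 2.41 against 2.25 and 2.22, the narrowest range of the tested genes. CRB3, the epithelial Crumbs protein, was at 0.365 and 0.132 against 0.548 and 0.122, and its groups overlapped.

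Of the 8 desmosome genes, 7 were at 1 or more in every library and DSC3 was at or below 0.0251. JUP (plakoglobin) was at 58.7 and 65.8 in WT cells and at 81.7 and 51.2 in C/EBPβ enh-/- cells, and DSP (desmoplakin, the link to keratins) was at 22.7 and 16.8 against 25.8 and 19.8. The groups of both genes overlapped. The desmosomal cadherin DSG2 was at 14.2 and 13.5 against 7.21 and 9.38, and its partner DSC2 was at 2.40 and 1.76 against 1.09 and 1.09. The 3 plakophilins among the 43 genes, armadillo-repeat proteins of the desmosome plaque, each had lower values in both C/EBPβ enh-/- libraries than in both WT libraries, as did 37.5% of all tested genes. PKP4 was at 26.1 and 28.7 against 11.03 and 13.6, PKP2 at 7.23 and 6.40 against 3.52 and 2.27, and PKP3 at 22.3 and 18.5 against 14.7 and 18.0.

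The epithelial surface protease ST14 (matriptase) was at or below 0.0626 in every library. Its inhibitor SPINT1 was at 0.629 and 0.371 in WT cells and at 0.108 and 0.150 in C/EBPβ enh-/- cells, and SPINT2 was at 1.34 and 2.004 against 0.307 and 2.25, where C/EBPβ enh-/- library 1 stood apart.

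Of the 6 regulators, ESRP2 was above 1 in all 4 libraries, and ELF3 and GRHL1 were above 1 in 2 each. ELF3, an ETS factor of epithelial cells (ENSG00000163435.11, chromosome 1 of GRCh37 from 201977073 to 201986311, plus strand), was at 12.9 and 19.3 in WT cells and at 0.357 and 0.481 in C/EBPβ enh-/- cells. ESRP2, an epithelial splicing regulator, was at 7.30 and 7.62 against 6.36 and 6.24. Its paralogue ESRP1 was at 0.447 in WT library 1 and at or below 0.103 in the other libraries. GRHL1 was at 0.960 and 1.08 against 1.42 and 0.433. GRHL2, a Grainyhead factor that activates CDH1 and claudin genes, was at or below 0.0104 in every library, or about 2.8 fragments at most. OVOL1, a zinc finger repressor of mesenchymal genes, was at or below 0.0892.

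Promoter windows were read for the junction and polarity genes from RefSeq, each with 250 bases before and 50 bases after a transcription start. Windows were given for 27 of the 43 genes, 42 windows in all. The 16 genes without a window include CDH1, EPCAM and PARD3, so the shares below do not cover them. The E-box CACCTG, the motif of ZEB and SNAI factors, was searched on both strands. It was present in 14 of the 42 windows (33.3%), which belong to 13 genes, and in 20.6% of 35116 windows of all genes. CRB3 and CLDN7 each had a window with 5 matches, and 0.094% of all windows held as many. CLDN7 had 2 windows, and the other one held no match. The window of ELF3 held 1. The 250 bases before the start are shown for these 3 genes, since ELF3 had the largest genotype difference of the 43 genes and the other windows hold the most matches. Capitals mark the E-box on either strand, and the sequences are RefSeq windows matched base for base to GRCh37. The ELF3 window is chr1:201979465-201979714 on the plus strand, that of CLDN7 is chr17:7165798-7166047 on the minus strand, and that of CRB3 is chr19:6464032-6464281 on the plus strand.
ELF3: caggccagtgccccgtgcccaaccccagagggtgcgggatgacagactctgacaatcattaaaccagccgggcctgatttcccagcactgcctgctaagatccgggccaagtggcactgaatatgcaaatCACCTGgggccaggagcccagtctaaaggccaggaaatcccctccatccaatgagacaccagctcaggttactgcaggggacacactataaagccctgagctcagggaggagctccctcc
CLDN7: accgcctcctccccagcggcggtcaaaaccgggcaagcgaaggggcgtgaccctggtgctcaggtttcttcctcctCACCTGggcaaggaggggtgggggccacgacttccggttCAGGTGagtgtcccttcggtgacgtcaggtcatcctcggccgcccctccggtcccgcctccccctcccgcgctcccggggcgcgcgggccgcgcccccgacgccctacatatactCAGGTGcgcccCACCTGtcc
CRB3: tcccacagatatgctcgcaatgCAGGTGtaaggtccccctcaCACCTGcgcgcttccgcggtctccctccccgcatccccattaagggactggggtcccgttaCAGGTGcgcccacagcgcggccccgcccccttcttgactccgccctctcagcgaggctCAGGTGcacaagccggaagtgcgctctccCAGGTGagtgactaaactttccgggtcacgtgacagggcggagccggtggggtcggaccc
All 5 matches of CRB3 and 4 of the 5 of CLDN7 lie before the start. CRB3 was below 1 in every library, while CLDN7 and ELF3 were expressed in WT cells, so windows with the motif belonged to genes of low and of higher level. DSP, at 16.8 to 25.8 in the 4 libraries, and DSG2, at 7.21 to 14.2, held 2 matches each.

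For the other motifs searched on both strands, the C/EBP motif TTGCNNAA was in 1 of the 42 windows (2.38%), in JUP, against 10.5% of all windows. The TEAD motif GGAATG was in 1 window (2.38%), in CLDN15, against 4928 of 35116 windows. The AP-1 motif TGANTCA was in 4 windows (9.52%), of CLDN2, CLDN4, CLDN15 and SPINT1, against 7.71%. A match is a string of letters in this window and not a bound site.

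The genotypes were then compared, to ask which junction and polarity genes differed once the enhancer was deleted. Log2(FPKM + 1) was fitted with limma for every gene whose FPKM averaged 1 or more across libraries. Of the 43 genes, 23 reached this mean and 20 did not. CGN, with a mean of 0.999, and GRHL1, with 0.973, lay just outside, and MARVELD2, with 1.32, lay just inside. ELF3 and CDH3 reached a mean of 1 only through their WT values, with C/EBPβ enh-/- means of 0.419 and 0.599. Fold changes on this scale understate the change of low genes. With 2 libraries a genotype, the smallest two-sided p of an exact permutation test is 0.333, so calls rest on the fit across all genes.

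Of the 23 tested genes, 2 were lower after enhancer deletion at an adjusted p under 0.05 (limma, Benjamini-Hochberg) and 0 were higher, against 1.21% lower and 0.248% higher (1.46% in either direction) among all tested genes. At an unadjusted p under 0.05 the counts were 8 lower and 0 higher, against 16.9% lower and 3.86% higher among all tested genes. For 14 of the 23 the WT libraries were both above the C/EBPβ enh-/- libraries, against 37.5% of all tested genes, and for 0 they were both below, against 15.1%. The log2 fold change was below 0 for 18 of the 23, against 62.6% of all tested genes. Their median log2 fold change was -0.31, where all tested genes had -0.14. It was -0.13 with the libraries centred on their median, where that of all tested genes was 0.03.

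ELF3 fell the most. WT cells averaged an FPKM of 16.1 ± 4.51 (SD, n = 2), and the enhancer-deleted cells averaged 0.419 ± 0.0878 (SD, n = 2), which is 38.4-fold lower. The log2 fold change was -3.57 (95% confidence interval -4.21 to -2.92, adjusted p = 0.00299, limma), or -3.43 after subtracting the median of all genes in the fit. With a library left out, it ranged from -3.84 to -3.29. The adjusted p (limma) was then 0.0460 without WT library 1, 0.0753 without WT library 2, 0.0666 without C/EBPβ enh-/- library 1 and 0.0556 without C/EBPβ enh-/- library 2. Without the filter on low values ELF3 did not pass, and the highest adjusted p of its 14 alternative fits was 0.271 (limma). In bulk RNA, fewer cells that express a gene and less RNA per cell cannot be told apart. Exons of the antisense gene ELF3-AS1 and of a long non-coding gene on the same strand overlap ELF3. Whether the counting used strand is not given in the sources used here.

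PARD3 (ENSG00000148498.11, chromosome 10 of GRCh37 from 34398488 to 35104253, minus strand) fell from 19.2 ± 2.99 (SD, n = 2) to 6.71 ± 1.02 (SD, n = 2), which is 2.85-fold lower. The log2 fold change was -1.38 (95% confidence interval -1.94 to -0.83, adjusted p = 0.0474, limma), or -1.24 after subtracting that median. This call lay close to the threshold, and PARD3 passed in 4 of 14 alternative fits. It did not pass without the mean-variance trend, without the filter on low values or with a replicate block. The adjusted p was 0.0939 when the libraries were centred on their median, 0.0883 when they were rescaled to the same total, and 0.361, 0.246, 0.221 and 0.108 without WT library 1, WT library 2, C/EBPβ enh-/- library 1 and C/EBPβ enh-/- library 2 (all limma).

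**Figure D3:**
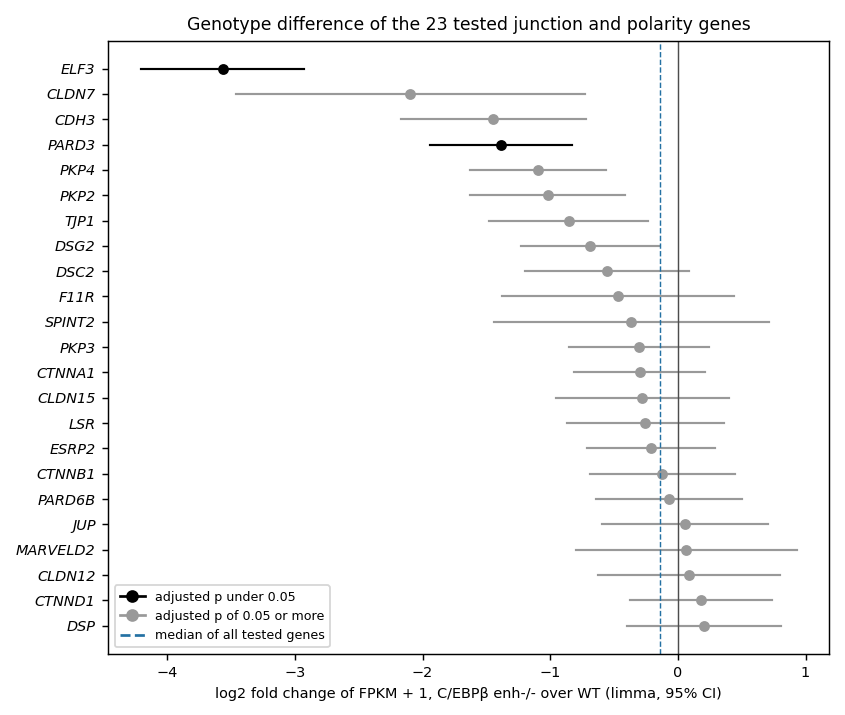
Log2 fold change of FPKM + 1 (C/EBPβ enh-/- minus WT) of the 23 tested genes, with 95% confidence intervals from limma. Black marks ELF3 and PARD3, the genes with an adjusted p under 0.05, and the dashed line is the median of all tested genes at -0.14. The remaining 21 genes lie between -2.10 and 0.21.

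The other 21 tested genes did not pass the threshold. Among the cadherins and claudins, the log2 fold change of CLDN7 was -2.10 (95% confidence interval -3.46 to -0.73, adjusted p = 0.116, limma), which was -1.16 without WT library 1. CDH3 had -1.44 (-2.17 to -0.72, adjusted p = 0.0732, limma). Among the desmosome genes, PKP4 had -1.10 (-1.63 to -0.57, adjusted p = 0.0685, limma), PKP2 had -1.02 (-1.63 to -0.41, adjusted p = 0.0993, limma) and DSG2 had -0.69 (-1.23 to -0.15, adjusted p = 0.161, limma). TJP1 had -0.86 (-1.48 to -0.23, adjusted p = 0.141, limma). The intervals of these 6 genes did not include 0. Exons of CDH3, PKP4 and DSG2 overlap antisense genes, and those of PKP2 overlap a long non-coding gene. Those of CLDN7 overlap ELP5 and a protein-coding gene on the same strand as CLDN7. The values of these 5 genes are uncertain to that extent. CDH3 and PKP4 passed the threshold when protein-coding genes alone were tested, with adjusted p-values of 0.0330 and 0.0376 (limma). Each passed in 2 alternative fits, both chosen after seeing the data. With protein-coding genes alone, 457 genes were lower over all genes, against 151 in the main fit.

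For the catenins, plakoglobin and desmoplakin the intervals included 0. The log2 fold change was -0.12 for CTNNB1 (95% confidence interval -0.69 to 0.44), -0.30 for CTNNA1 (-0.81 to 0.22), 0.18 for CTNND1 (-0.38 to 0.74), 0.06 for JUP (-0.60 to 0.71) and 0.21 for DSP (-0.40 to 0.81). For PARD6B it was -0.07 (-0.64 to 0.51) and for ESRP2 -0.21 (-0.72 to 0.29). The sign of CTNNB1 and PARD6B turned when libraries were centred on their median, to 0.05 and 0.11. MARVELD2, F11R and SPINT2 had the widest intervals of the genes below an absolute change of 0.5, from -0.80 to 0.93, from -1.38 to 0.44 and from -1.44 to 0.71.

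Other genes of the same structures were read from lists of 119 genes with an identifier, of which 62 were tested. Of these 62, 3 were lower and 1 was higher in C/EBPβ enh-/- cells, against 1.21% and 0.248% of all tested genes, with a median of -0.27. KLF5, a zinc finger factor of epithelial cells, fell from 11.8 and 11.97 in WT cells to 3.89 and 4.33 (log2 fold change -1.33, adjusted p = 0.0399, limma). PPL (periplakin, which links desmosomes to keratins) fell from 7.53 and 7.62 to 0.611 and 1.01 (-2.25, adjusted p = 0.0163, limma). LAMB3, a laminin 332 chain of the basement membrane, fell from 17.8 and 15.9 to 1.86 and 2.35 (-2.52, adjusted p = 0.00554, limma). AFDN (afadin, the actin link of nectins) rose from 1.22 and 0.454 to 9.66 and 5.94 (2.26, adjusted p = 0.0319, limma). PPL and AFDN reached a mean FPKM of 1 only through the genotype where they were higher. In the other genotype their means were 0.813 (PPL, C/EBPβ enh-/-) and 0.836 (AFDN, WT). With any 1 library left out, none of these 4 passed the threshold, and the adjusted p ranged from 0.107 to 0.343 for KLF5, from 0.0613 to 0.182 for PPL, from 0.0597 to 0.128 for LAMB3 and from 0.0892 to 0.239 for AFDN. KLF5 did not pass when the libraries were centred on their median (adjusted p = 0.0802), rescaled to the same total (0.0698, or 0.106 without ENSG00000259001) or fitted with a replicate block (0.0635), all with limma.

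Polarity genes were then read over both lists. Of the 24 polarity genes in both lists together, 21 were tested and their median log2 fold change was -0.56, where all tested genes had -0.14 and the remaining wider lists ran from -0.66 for 3 tested gap junction genes to -0.10 for 10 tested further epithelial genes. PARD3 was the only one called, 1 of 21, against 1.21% of all tested genes lower, and for 13 of 21 the WT libraries were both above the C/EBPβ enh-/- libraries, against 37.5%. For 1 of 21 they were both below, against 15.1%, and at an unadjusted p under 0.05 the counts were 10 lower and 0 higher, against 16.9% and 3.86%. The next did not pass, with an adjusted p (limma) of 0.0529 or more. Among the alternative fits, PALS1 passed in 3 of 14, LLGL2 in 3 of 13, PARD3B in 2 of 13 and DLG5 in 1 of 14. PALS1, the scaffold of the Crumbs complex, was at 35.9 and 30.0 in WT cells and at 8.53 and 13.4 in the deleted cells (log2 fold change -1.53, adjusted p = 0.0531, limma). The basolateral protein LLGL2 was at 5.24 and 7.49 against 1.63 and 1.66 (-1.46, adjusted p = 0.0529, limma), and PARD3B, a relative of PARD3, was at 6.55 and 6.48 against 1.65 and 2.46 (-1.31, adjusted p = 0.0588, limma). DLG5, a relative of the Scribble partner DLG1, was at 31.2 and 29.7 against 6.97 and 15.3 (-1.46, adjusted p = 0.0900, limma). Of the kinases that bind PAR6, PRKCI had a log2 fold change of -0.61 and PRKCZ of -0.74, with adjusted p-values of 0.225 and 0.185 (limma). SCRIB, DLG1 and CDC42 had -0.13, -0.06 and 0.05. Outside the polarity genes, LIMA1, an actin-binding protein, had -1.51 (adjusted p = 0.0832, limma). KLF4, an epithelial zinc finger factor, was at 2.74 and 1.29 in WT cells and at 7.14 and 7.90 in the deleted cells (log2 fold change 1.54, adjusted p = 0.0625, limma). The desmosome gene PERP was at 43.8 and 40.8 against 120.3 and 68.7, higher in both C/EBPβ enh-/- libraries (log2 fold change 1.09, adjusted p = 0.115, limma). In the other lists, 0 of 9 further tight junction genes and 0 of 3 gap junction genes passed (limma), with 2 and 2 lower and 1 and 0 higher at an unadjusted p under 0.05 (16.9% and 3.86% of all tested genes). Of the 28 further epithelial genes with an identifier, 17 were below 1 in all 4 libraries, among them RAB25, OVOL2, GRHL3 and PRSS8, and CD24 was not matched.

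**Figure D4:**
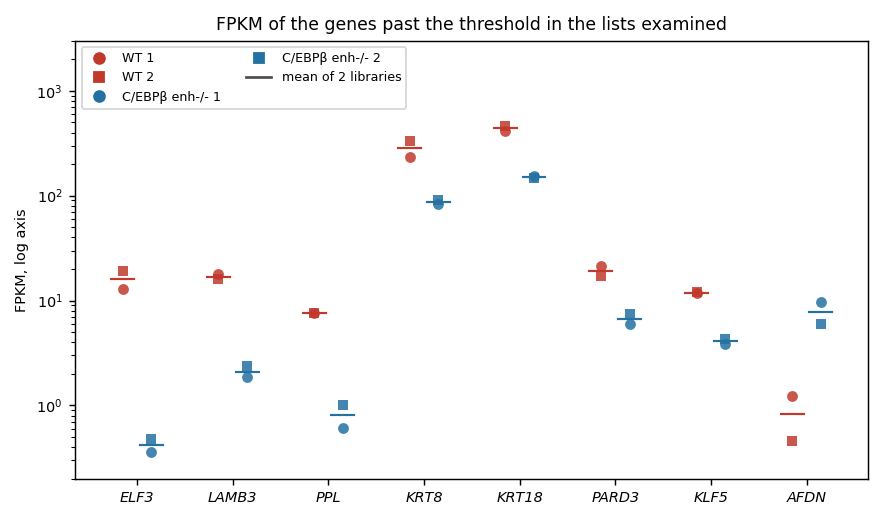
FPKM (log axis) in each library for the genes past the threshold in the lists examined, with WT libraries in red, C/EBPβ enh-/- libraries in blue and horizontal lines at the mean of each genotype. The 7 lower genes and AFDN, the 1 higher gene, have groups that do not overlap, and ELF3 has the widest gap.

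Simple keratins and mesenchymal genes were set beside these changes. Of the 3 tested simple keratins, 2 were lower past the threshold (limma), against 1.21% of all tested genes. KRT8 was at 231 and 335 in WT cells and at 82.6 and 90.0 in the deleted cells (log2 fold change -1.68, adjusted p = 0.0325, limma), and KRT18 was at 416 and 461 against 155 and 148 (-1.52, adjusted p = 0.0243, limma). Neither passed when the libraries were rescaled to the same total (adjusted p = 0.0673 and 0.0548, limma) or with any 1 library left out, where the adjusted p (limma) lay between 0.101 and 0.215. KRT8 and KRT18 each passed in 6 of 14 alternative fits, and neither passed without the filter on low values. Exons of these neighbouring genes overlap in the annotation. Of the 14 tested mesenchymal genes 0 passed (limma), with 5 lower and 1 higher at an unadjusted p under 0.05 (16.9% and 3.86% of all tested genes) and a median of -0.51. The log2 fold change was -0.72 for VIM (adjusted p = 0.181, limma), -0.81 for CDH2 (adjusted p = 0.277), -0.53 for ZEB1 (adjusted p = 0.397), 0.22 for ZEB2 (adjusted p = 0.655), 0.73 for SNAI1 (adjusted p = 0.294), 0.39 for SNAI2 (adjusted p = 0.710), -0.71 for TWIST1 (adjusted p = 0.233) and -0.67 for TWIST2 (adjusted p = 0.181). The 5 lower at an unadjusted p under 0.05 were VIM, TWIST1, TWIST2, PDGFRB and S100A4, and the 1 higher was COL3A1. The summed FPKM of the mesenchymal list was 649 and 876 in WT cells and 405 and 441 in C/EBPβ enh-/- cells, and that of the simple keratins was 1285 and 1226 against 333 and 458. Both sums were thus lower in C/EBPβ enh-/- cells. VIM and S100A4 made up most of the mesenchymal sum, S100A4 with 315 and 471 against 119 and 196 (log2 fold change -1.33, adjusted p = 0.0903, limma). COL3A1, a fibrillar collagen, was at 33.3 and 31.9 against 45.8 and 55.7, higher in both C/EBPβ enh-/- libraries (0.62, adjusted p = 0.178, limma). KRT7, with 636 and 429 against 95.4 and 220, was a large part of the keratin sum and did not pass (-1.84, adjusted p = 0.0816, limma). The mesenchymal sum therefore does not stand for every gene of its list, and the part of both lists in the results for junction genes was not tested.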

How the data were processed

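The data were RNA-seq of 4 libraries, whose labels give the genotype and a number. The authors deposited 1 FPKM value per gene and library. Per the labels, the submitters' processing notes name hg19, TopHat2 2.0.13, Cufflinks and edgeR, with no role or order, and whether libraries were scaled to each other is not given in the sources used here. Each file held 57815 entries, 57768 without the pseudoautosomal copies on chromosome Y, and 55535 matched a symbol in a list of gene names. GENCODE release 44 lifted to GRCh37 gave positions and exon lengths.

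FPKM is relative to the rest of a library, so a few very high genes lower all others, and no read counts were used. The 5 highest genes held 18.8% to 35.1% of the totals. Depth was read from values under 0.3 in genes with a single transcript over 1000 nt, and is approximate. Fragment numbers of single genes use the whole exon length and are therefore upper estimates.

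Values were transformed as log2(FPKM + 1), genes with a mean of at least 1 were kept, and limma 3.58.1 under R 4.3.3 was used for the genotype comparison (mean-variance trend, two-sided, Benjamini-Hochberg over 12491 genes, threshold 0.05), without a replicate block. The procedure was first tested on simulated data. With n = 2 per genotype the number of libraries limits the precision. The genes, lists and tests were chosen with earlier results of these data known. Named were all 43 genes, the genes past the threshold in the wider lists, the genes with the largest changes among those whose genotypes did not overlap, marker genes and CEBPB. PRKCI, PRKCZ, SCRIB, DLG1, CDC42, PERP, RAB25, OVOL2, GRHL3 and PRSS8 were named after their values were seen. There were 12 alternatives, and 2 more (protein-coding genes only, and no gene listed at 0) were chosen after seeing the data. Python 3.11.15, pandas 2.3.3, numpy 2.4.6 and matplotlib 3.10.9 made the tables and figures.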

Additional observations from a re-analysis of the deposited data

How the results depend on the processing

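Among the junction and polarity genes, the count of 2 lower became 1 without the mean-variance trend and with either rescaling to the same total. It also became 1 when centred on the median and with the replicate block (ELF3 in each of these fits). Without the filter on low values it was 0. At an unadjusted p under 0.05 (limma), 10 of 43 were then lower and 1 higher, against 2657 and 1107 of 57768 fitted genes. It was 4 of 23 in both fits chosen after seeing the data (protein-coding genes only, and without genes listed at 0). Of all fitted genes, 457 of 10909 and 324 of 12379 were lower in these 2 fits. With a library left out, which leaves 1 genotype with 1 library, fewer of these genes were lower past the threshold. The count of higher genes was 0 in every fit (limma). Their median of -0.31 was -0.45 with a pseudocount of 0.1, -0.17 without the filter, -0.15 rescaled without ENSG00000259001, -0.13 when centred, and -0.44 to -0.26 with a library left out.

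In the wider lists, 3 lower and 1 higher became 0 and 0 without the filter (limma). At an unadjusted p under 0.05, 18 of 119 fitted genes were then lower and 3 higher, against 2657 and 1107 of 57768. Among protein-coding genes, 8 of 62 were lower and 2 higher, against 457 and 60 of 10909. Without genes listed at 0, 6 of 62 were lower and 2 higher, against 324 and 47 of 12379. With any library left out, the calls of the main fit were lost. The lower count was 2, without KLF5, with either rescaling, centring and the block. With a mean of at least 5, 0 of 38 fitted genes were higher (limma), and AFDN, with a mean of 4.32, was not fitted. At an unadjusted p under 0.05, 2 were higher, against 293 of 8539 fitted genes. In the marker lists, 2 lower of 20 tested genes became 0 without the filter and with either rescaling (limma). At an unadjusted p under 0.05, these fits gave 9 of 68, 8 of 20 and 5 of 20 lower. All fitted genes gave 2657 of 57768, 1858 of 12491 and 1168 of 12491. The count was 1 when centred and with the block, and 4 among protein-coding genes, against 457 of 10909. With any library left out, the calls of the main fit were lost.

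Over all tested genes, 151 lower and 31 higher became 0 and 0 without the filter (limma, 2657 and 1107 at an unadjusted p under 0.05), 61 lower rescaled to the same total, 43 rescaled without ENSG00000259001, 68 centred and 93 with the block, 457 and 60 among protein-coding genes, and 324 and 47 without genes listed at 0. With a mean of at least 5, 20 were higher. With a library left out there were 9 to 22 lower and 3 to 20 higher, with fewer samples in the fit. Their median of -0.14 was 0 without the filter, 0.0245 rescaled without ENSG00000259001, 0.0345 centred, and -0.19 to -0.10 with a library left out. The cause of these changes was not tested further.

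Genes with small changes turned in sign. CTNNB1 was at 0.0699 and PARD6B at 0.0692 rescaled without ENSG00000259001, and at 0.0536 and 0.11 when centred. With a library left out, signs turned for CTNNB1 (-0.32 to 0.0749), CTNND1 (-0.0041 to 0.36), CLDN12 (-0.26 to 0.43), MARVELD2 (-0.35 to 0.48), F11R (-1.04 to 0.10), DSP (-0.0027 to 0.41), JUP (-0.28 to 0.39) and SPINT2 (-1.02 to 0.29). With the other libraries of a genotype reduced to 1, that library is assumed to vary like the others.

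The replicate block uses only the shared numbers 1 and 2 of the labels. The deviations of same-numbered libraries had a correlation of 0.00945 across genes, so the numbers were not taken to pair the libraries. With the block the adjusted p was 0.00600 for ELF3 and 0.0729 for PARD3 (limma).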
